A study of Mus musculus with 721 samples.

Results

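The genes of the mitochondrial respiratory chain and ATP synthase were followed through endocrine differentiation in the embryonic mouse pancreas. Members were chosen by name alone: gene symbols starting with Nduf, Cox4 to Cox8, Uqcr or Atp5, the symbols Sdha to Sdhd, and the mt- genes for NADH dehydrogenase, cytochrome b, cytochrome oxidase and ATP synthase subunits. This gave 105 of the 32913 entries of the gene table, of which 92 are nuclear and 13 are encoded by the mitochondrial genome. By role, the nuclear members were 29 accessory subunits, 7 core subunits and 7 assembly factors of complex I, 4 subunits of complex II, 8 of complex III, 20 of complex IV (with Ndufa4 and Ndufa4l2 counted there) and 17 of complex V. Complex V was counted by the symbol start Atp5, which takes in Atp5s and Atp5sl without a check that they are subunits.

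Transcriptomes came from 721 eGFP-positive cells of Neurogenin 3-eGFP mouse embryos, in which eGFP reports Neurog3, a transcription factor required for the endocrine lineage. Every cell carried the reporter and passed the same eGFP gate, so cells outside the gate were not sampled, and no cell was treated with any agent. Markers of leukocytes and endothelium were still found among the sorted cells (values below), so whether each had made eGFP is not known. Cells were sorted from pancreata of E11.5, E12.5, E13.5, E14.5 and E15.5 embryos, with the 3 later days sequenced in 2 runs, so that day and run gave 8 cell sets. The labels name no embryo, cells are not replicates, and p-values therefore measure only the spread between cell sets, which may be technical.

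After minimums of 100000 fragments and 1500 genes detected at 1 FPKM, 658 cells were kept. FPKM scales fragments by transcript length and library size, and is a level per transcript length that is relative to the rest of the cell's library. The kept cells fell into exclusive states by the FPKM of marker genes that are no members. Neurog3-only cells (Neurog3 at 10 FPKM or more, Fev under 10, hormones under 100) numbered 186 in 8 sets. Cells with both Neurog3 and Fev, a transcription factor of endocrine precursors, numbered 86, of which 83 lay in 6 usable sets, and Fev-only cells 70 in 6. Glucagon cells (Gcg at 100 FPKM or more, insulin under 100) numbered 51, of which 41 lay in 5 usable sets, and insulin cells (Ins1 or Ins2 at 100 FPKM or more, Gcg under 100) 57, of which 47 lay in 3. A further 17 cells held both hormones and 191 were under all of these thresholds, and a set was usable for a state where it held at least 5 of its cells. The hormones followed the thresholds: Ins2 measured 13922 to 135680 FPKM in the insulin sets and at most 29.3 FPKM in the glucagon sets. Gcg measured 2545 to 60411 FPKM in the glucagon sets. The hormone states set no limit on Neurog3 or Fev. Neurog3 measured 0 to 1252 FPKM in the glucagon sets and 2.07 to 127 FPKM in the insulin sets. Its median over the Neurog3-only sets was 1412 FPKM. Fev measured 3.74 to 30.7 FPKM in the glucagon sets and 6.21 to 25.6 FPKM in the insulin sets.

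The respiratory chain carries electrons from NADH (complex I) and succinate (complex II) through ubiquinone, complex III and cytochrome c to oxygen at complex IV, and the proton gradient this builds drives ATP synthesis at complex V. The mitochondrial genome encodes core subunits of complexes I, III, IV and V, while complex II and most other subunits come from nuclear genes. In beta cells this pathway couples glucose oxidation to ATP, closure of potassium channels and insulin release.

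The sets differed in ways that touch the members. Fragments per kept cell ran from 101675 to 1990000 with a median of 587177, and median total FPKM per cell was highest in E13.5 run 1 (1165711, against 712181 to 1020111 in the other sets). Named nuclear genes took a median of 47.8% to 51.5% of FPKM in the run 2 sets and 67.1% to 78.4% in the run 1 sets. All 96 index pairs recurred across sets and 0 within a set. At E14.5, 1 pair of cells from different runs shared an index pair and correlated at 0.874 over genes, against 0.763 for the next pair. Both cells held both hormones, so neither entered a comparison of states. Summed markers of 8 leukocyte genes ran from 1.96 to 2675 FPKM over the Neurog3-only sets, with all 8 genes at 1 FPKM or more in some set. They ran from 0.917 to 166 FPKM in the glucagon sets and from 21.5 to 54.5 FPKM in the insulin sets, where Tyrobp and Lyz2 were at 0. The 7 acinar or tip markers ran from 15.7 to 3323 FPKM in Neurog3-only sets and from 15.3 to 28.4 FPKM in insulin sets, and their part in the results was not tested. Over the 3 duct or trunk markers the sums were 97.8 to 1139 FPKM in Neurog3-only and 30.1 to 37.1 FPKM in insulin sets. In sets of cells under all thresholds the sums were 1.42 to 3569 FPKM for leukocyte and 0.43 to 1925 FPKM for acinar or tip markers. For 6 endothelial markers they were 0.398 to 428 FPKM there. Which of these cells were of the endocrine lineage was not tested.

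Most members were abundant in these cells. Of the 92 nuclear members, 73 had a mean over the 8 sets of at least 100 FPKM, and 6 lay under 1 FPKM. The median level of a nuclear member was 291 FPKM. Complex V had the highest median of the nuclear groups (593 FPKM, range 15.1 to 979), followed by complex III (522 FPKM, 103 to 990). The lowest members counted in complex V, Atp5s (15.1 FPKM) and Atp5sl (28 FPKM), were placed there by symbol alone. Complex II subunits had a median of 305 FPKM, accessory and core subunits of complex I 284 and 232 FPKM, and complex IV subunits 246 FPKM with the widest range, 0.0175 to 1357. Complex I assembly factors were low, with a median of 25 FPKM and a range of 0.902 to 71.3.

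**Figure D1:**
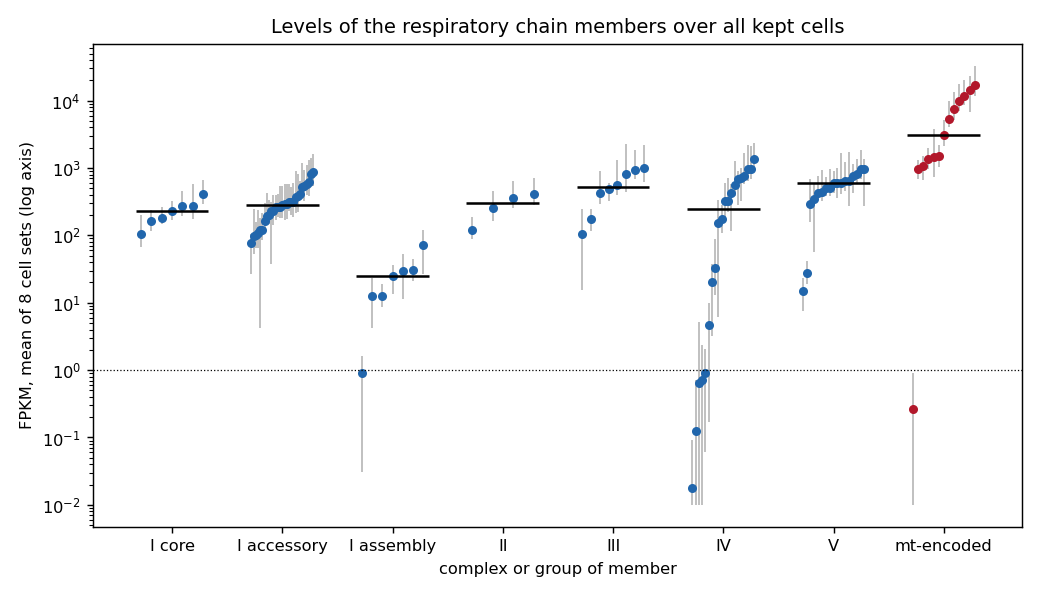
Mean FPKM of each of the 105 members over the kept cells of a set (log scale), grouped by complex. Points are means of the 8 sets, vertical lines run from the lowest to the highest set, black bars are group medians, and values at 0 are drawn at the lower edge; the median of the mitochondrial-encoded group (3045 FPKM) lies above that of every nuclear group, the highest of which is 593 FPKM.

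The 5 nuclear members of highest mean level were Cox4i1 (1357 FPKM), the ubiquitous form of complex IV subunit 4; Uqcr11 (990 FPKM), a small subunit of complex III; Atp5b (979 FPKM), the catalytic beta subunit of ATP synthase; Cox6b1 (959 FPKM), a complex IV subunit; and Atp5h (955 FPKM), a subunit of the peripheral stalk. Cox4i1 was detected in 657 of 658 cells. Its set means in run 1, from E11.5 to E15.5, were 1165, 1367, 2346, 1229 and 1297 FPKM, and in run 2, from E13.5 on, 1093, 1047 and 1311 FPKM. Apart from E13.5 run 1, its sets lay close together. Complex II, which also serves the tricarboxylic acid cycle, had its flavoprotein Sdha at 254 FPKM (sets 163 to 462), its iron-sulfur subunit Sdhb at 356 FPKM (257 to 639), and its membrane anchors Sdhc at 119 FPKM (87.3 to 188) and Sdhd at 417 FPKM (285 to 713). Of the 4, Sdhc was lowest in every set and E13.5 run 1 was the highest set for each.

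Isoform pairs of complex IV were used unequally. Cox4i2, the alternative form of subunit 4 known from lung and from low oxygen, was detected in 50 of 658 cells (7.6%, exact Clopper-Pearson 95% interval 5.69% to 9.9%, which covers counting error only). The E11.5 set had it in 19.2% of cells and the E12.5 set in 17.8%, against 2.27% to 6.1% in the 6 later sets. In these early sets 58 of 73 and 75 of 90 cells were under all state thresholds. Such cells held Cox4i2 in 15.2% over all sets, against 0% to 8.06% in the other states, so day and state are mixed here. Some sets of such cells also held leukocyte, endothelial or acinar markers, and which cell types held Cox4i2 was not tested. The highest set mean of Cox4i2, 9.87 FPKM, was in E13.5 run 1, where 2 cells held it. Cox7a1, the form of heart and skeletal muscle, was detected in 96 cells (14.6%) with set means of 3.22 to 37.8 FPKM, while Cox7a2, found in most tissues, was detected in 650 cells at 221 to 717 FPKM and Cox7a2l, a factor of supercomplex assembly, in 643 cells at 180 to 602 FPKM. Cox6b2, known from testis, was detected in 197 cells (29.9%) at 13 to 89.5 FPKM, with E13.5 run 1 highest. The muscle forms Cox6a2 and Cox8b were detected in 2 and 3 cells, against 643 cells for Cox6a1 and 635 for Cox8a. The testis forms Cox7b2 and Cox8c were detected in 21 and 17 cells, against 628 cells for Cox7b.

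Ndufa4l2, a relative of Ndufa4 that is known to rise in low oxygen, was detected in 5 cells, of which 4 were at E11.5. Ndufa4 itself was detected in 654 cells with a mean of 951 FPKM. Ndufaf6, a complex I assembly factor, was the sixth nuclear member under 1 FPKM, detected in 58 cells. The ring of ATP synthase is built from subunit c, which Atp5g1, Atp5g2 and Atp5g3 encode as different precursors of the same mature protein. All 3 were abundant, with 753 FPKM for Atp5g1 (sets 419 to 1146), 496 FPKM for Atp5g2 (386 to 747) and 815 FPKM for Atp5g3 (595 to 1347), and their set ranges overlapped.

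The mitochondrial-encoded members stood higher. Their highest means were mt-Co3 (17238 FPKM), mt-Atp8 (14264 FPKM), mt-Atp6 (11524 FPKM), mt-Co2 (9900 FPKM) and mt-Co1 (7615 FPKM), the subunits of complexes IV and V. Cytochrome b, mt-Cytb, the complex III subunit, measured 5372 FPKM. The complex I subunits were lower, with mt-Nd1 at 3045 FPKM, mt-Nd4 at 1486, mt-Nd3 at 1455, mt-Nd5 at 1339, mt-Nd6 at 1052 and mt-Nd2 at 962 FPKM. mt-Nd4l was listed at a mean of 0.262 FPKM and detected in 8 cells.

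Some of these transcripts lie in shared entries of the deposited table (mm10). mt-Nd4l has the same locus as mt-Nd4, chrM:9877-11544, and the 3 genes mt-Atp8, mt-Atp6 and mt-Co3 share chrM:7766-9390. mt-Nd5 and mt-Nd6, which lie on opposite strands, share chrM:11742-14070. The sources used here do not say how reads were divided within a shared locus, so the levels of these members relative to each other are uncertain. Of the nuclear members, 24 of 92 also share a deposited locus with another gene.

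E13.5 run 1 was the highest set for most members, and a few members went the other way there. The median nuclear member of at least 100 FPKM measured 641 FPKM in E13.5 run 1 and 289 to 370 FPKM in the other 7 sets. Relative to that median, 5 of 85 nuclear members with a mean of at least 10 FPKM were lower by 2 log2 units or more in E12.5 run 1 and E13.5 run 1 than in the other sets. They were Cox5a, a structural subunit of complex IV (-5.30), Ndufab1, the acyl carrier protein of complex I (-5.13), the ATP synthase subunit Atp5d (-2.70), Uqcrfs1, the Rieske iron-sulfur protein of complex III (-2.67), and Atp5b (-2.04). Atp5d and Uqcrfs1 were named after their values were seen.

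Cox5a measured 340, 6.05, 6.54, 84.9 and 194 FPKM in the run 1 sets from E11.5 to E15.5, and 215, 122 and 263 FPKM in the run 2 sets from E13.5 on. It was detected in 24.4% and 26.5% of the cells of the 2 low sets and in 86.2% to 97.4% of those of the other 6, with no overlap. In the 2 low sets Ndufab1 measured 4.25 and 8.58 FPKM, against 129 to 183 FPKM elsewhere. The 2 sets also held the low values within Neurog3-only cells, where Cox5a measured 0.577 and 7.85 FPKM against 104 to 270 FPKM in the other sets. Uqcrfs1 was also low in both E14.5 sets, at 22.1 and 34.9 FPKM. Other genes dropped as far. Taken instead relative to the median of all 1351 genes of at least 100 FPKM, mitochondrial-encoded members aside, 125 of these genes (9.25%) were lower by 2 log2 units or more in the same sets, and 4 of the 73 members among them (5.48%), fewer than the 5 above because the reference differs. Relative to the nuclear median, none of the 12 mitochondrial-encoded members of at least 10 FPKM was lower in both sets than in every other set. Of the 85 nuclear members 13 were. On this measure the share over all genes was not counted, so no difference between nuclear and mitochondrial-encoded members is read from these counts. The drop at E13.5 was in run 1 alone, and E12.5 has no run 2 set, so day and run cannot be told apart there.

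The comparison of states asked whether members differ between Neurog3-only cells and the states with Fev or a hormone, some of which still held Neurog3. Levels were compared as log2(mean FPKM of a state in a set + 1) with limma over 35 state-by-set units, with the set as a term, a two-sided test and Benjamini-Hochberg adjustment over all 16029 genes tested. Of the members, 86 nuclear and 12 mitochondrial-encoded ones passed the minimum of a mean of 1 FPKM. The contrasts below share the Neurog3-only cells, so their values are given side by side and not as independent evidence.

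In cells with both Neurog3 and Fev, 0 of 86 nuclear members passed the threshold in limma, against 0.181% of all genes tested higher and 0.125% lower. Of the 86, 6 had an unadjusted p under 0.05, as had 1407 of the 16029 genes tested. The median log2 fold change was 0.047 for the nuclear and 0.0037 for the mitochondrial-encoded members, and -0.04 for all genes tested. The largest rises were Ndufv3, an accessory subunit of the NADH-oxidising arm of complex I, at 0.99 ± 0.25 (SE; adjusted p = 0.09; higher in 6 of 6 sets), and Atp5sl at 0.72 ± 0.77. The largest falls were Cox4i2 at -1.97 ± 0.81 and the assembly factor Ndufaf1 at -1.18 ± 0.66, neither past the threshold.

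In Fev-only cells 1 nuclear member was higher, Atp5l, which encodes subunit g in the membrane part of ATP synthase, against 1.37% of all genes tested and 5.27% of those with a mean of at least 100 FPKM. Atp5l measured 2515 FPKM in Fev-only cells and 1429 in Neurog3-only cells of E13.5 run 1. The same pair of values in run 1 was 860 and 565 FPKM at E14.5, then 784 and 733 FPKM at E15.5. In run 2 it was 514 and 280 FPKM, 556 and 275 FPKM, then 504 and 261 FPKM over the same 3 days. It was higher in 6 of 6 sets with a log2 fold change of 0.71 ± 0.18 (limma, adjusted p = 0.0221), though the ranges of the states over all sets overlapped. The call was lost without any 1 of the 4 sets of E13.5 and E14.5, where 259 to 341 genes passed in all, against 541 with all sets. No nuclear member was lower in Fev-only cells, while 2.01% of all genes were; Cox4i2 (-2.01 ± 0.81) and Cox7a1 (-1.52 ± 1.02) had the largest falls and missed the threshold. The medians were 0.077 for nuclear members, -0.14 for mitochondrial-encoded members and -0.098 for all genes, and 0 of 12 mitochondrial-encoded members passed.

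In glucagon cells 13 of 86 nuclear members were higher and 0 lower. This is 15.1%, against 3.54% of all genes tested that were higher (1.05% were lower) and 16.3% of the 1386 genes with a mean of at least 100 FPKM, a background added after the values were seen. Of the members of that abundance, 13 of 73 (17.8%) were higher, near the background. The median log2 fold change of the nuclear members was 0.39, with -0.02 for all genes tested and 0.30 for the abundant genes. Complex I held 11 of the 13 calls, 9 of 29 accessory and 2 of 7 core subunits. Complexes III and V had 1 each, and complexes II and IV and the assembly factors had 0.

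Ndufa1, an X-linked accessory subunit needed to assemble complex I, showed the lowest adjusted p. In glucagon cells it measured 995 and 878 FPKM in run 1 (E12.5, E14.5) and 511, 1031 and 1260 FPKM in run 2 (E13.5 to E15.5). In the Neurog3-only cells of these sets, by day and then run, it measured 383, 330, 527, 271 and 304 FPKM. Every glucagon value exceeded its partner, and the lowest, 511 FPKM, lay just under the highest partner, 527 FPKM. The log2 fold change was 1.36 ± 0.19 (limma, adjusted p = 8.03e-05). Ndufb8, an accessory subunit of the membrane arm, measured 531, 790, 1246, 1266 and 1074 FPKM in the 5 glucagon sets in that order, against 568, 518, 570, 462 and 376 FPKM. It was higher in 4 of 5 sets, the exception being E12.5 run 1, with a log2 fold change of 0.93 ± 0.17 (limma, adjusted p = 0.0014). Ndufb8 shares its deposited locus with Sec31b and Gm20538.

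The other largest rises among the members called in glucagon cells were Ndufv3 (1.24 ± 0.27, adjusted p = 0.00616), Ndufb10, a membrane-arm accessory subunit (0.96 ± 0.22, 0.00837), Atp5e, the epsilon subunit of ATP synthase (0.89 ± 0.21, 0.0131), and the core iron-sulfur subunit Ndufs8 (0.88 ± 0.23, 0.0221), each higher in 5 of 5 sets by limma. Ndufaf3, an assembly factor (1.09 ± 0.34), and Atp5s (0.94 ± 0.59), both named after their values were seen, missed the threshold. The other 7 calls, named after their values were seen, were Ndufa7, Uqcr11, Ndufs4, Ndufb11, Ndufv2, Ndufb5 and Ndufa6, with log2 fold changes of 0.71 to 0.84. The largest falls, Cox4i2 (-2.15 ± 0.86) and the assembly factor Ndufaf5 (-1.38 ± 0.84), missed the threshold.

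Total FPKM per cell moved with the glucagon state. In run 2 the medians of glucagon cells were 1310278, 1270098 and 1419140 from E13.5 to E15.5, and those of Neurog3-only cells 980862, 1000610 and 826477. In run 1 they were 667098 and 879074 in glucagon cells of E12.5 and E14.5, and 752050 and 829577 in Neurog3-only cells. With every cell rescaled to the same sum over named nuclear genes, the median of the nuclear members was 0.077 and that of all genes -0.26. Then 5 members remained higher, namely Ndufa1 (1.10 ± 0.20), Ndufv3, Ndufb10, Ndufb8 and Uqcr11, and Uqcrfs1 was lower at -1.47 ± 0.35 (limma, adjusted p = 0.0161). Within run 1 alone 0 members were higher and 2 lower, Uqcrfs1 and Ndufb6, with a nuclear median of -0.034, and within run 2 alone Ndufa1 and Ndufb8 were higher, with a median of 0.59. Without E14.5 run 2 the count of higher members was 2, without E15.5 run 2 it was 3, and without E14.5 run 1 it was 8. Over all genes tested 310, 358 and 401 passed in these fits, against 736 with all sets. Ndufa1 and Ndufb8 were called without any 1 set. With a hormone threshold of 10 FPKM 2 members were higher, where 182 genes passed in all, and the nuclear median was 0.15. With no set term 0 members passed, with 248 genes in all.

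In insulin cells 10 of 86 nuclear members were higher and 0 lower. This is 11.6%, against 1.60% of all genes tested that were higher (0.487% were lower) and 8.87% of the genes of at least 100 FPKM, where the members of that abundance had 10 of 73 (13.7%). No test of the members' share against other genes was made. The median of the nuclear members was 0.53, with 0.036 for all genes and 0.25 for the abundant genes, and 81 of 86 members lay above 0. Accessory subunits of complex I had 6 of 29 calls and the highest median (0.74). Core subunits had 1 of 7 (0.54), complex III 1 of 8 (0.48) and complex V 2 of 17 (0.37), with none in complexes II and IV or among the assembly factors.

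Insulin cells came from E14.5 run 2 and both E15.5 runs, where Ndufv3 measured 538, 464 and 602 FPKM. The Neurog3-only cells of these sets measured 137, 227 and 162 FPKM, and all 8 Neurog3-only sets ran from 137 to 356 FPKM, so the groups did not overlap. The log2 fold change was 1.79 ± 0.33 (limma, adjusted p = 0.00333). Atp5g1, one source of subunit c, measured 944, 1721 and 1373 FPKM, against 314, 628 and 436 FPKM in the same sets and 314 to 823 FPKM over all Neurog3-only sets, again without overlap. Its log2 fold change was 1.62 ± 0.30 (limma, adjusted p = 0.00333), while Atp5g2 (0.26 ± 0.26) and Atp5g3 (0.33 ± 0.26) did not pass; the difference between the 3 genes was not tested. Ndufa1 measured 725, 1225 and 928 FPKM against 271, 339 and 304 FPKM, a log2 fold change of 1.5 ± 0.24 (limma, adjusted p = 0.000949), and its ranges overlapped through E13.5 run 1, at 941 FPKM in Neurog3-only cells.

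Uqcr11 (1.25 ± 0.26, adjusted p = 0.00822), Ndufb8 (1.24 ± 0.21, 0.00165) and Ndufs8 (1.21 ± 0.28, 0.0162) followed among the members called by limma, each higher in 3 of 3 sets. The remaining 4 calls were Ndufb10, Atp5e, Ndufs5 and Ndufb11, with log2 fold changes of 0.88 to 1.10; Ndufs5 was named after its values were seen. The largest falls were Cox4i2 (-1.98 ± 1.04) and Ndufaf1 (-1.33 ± 0.85), neither past the threshold. With cells rescaled over named nuclear genes 6 members remained higher, and the medians were 0.30 for nuclear members and -0.12 for all genes. Within run 1 alone, where 1 set held both states, the log2 fold change of Ndufa1 was 2.01. There the insulin state is 1 sample, so only the size of the change is given. Within run 2 alone 0 members passed, with 49 genes in all. The nuclear medians were 0.71 in run 1 alone and 0.57 in run 2 alone. Without E15.5 run 1 the count was 3 and without E15.5 run 2 it was 2. Over all genes tested 49 and 46 passed in these fits, against 335 with all sets. Ndufv3 and Ndufa1 were called without any 1 set. With a hormone threshold of 10 FPKM 0 members passed, where only 7 genes passed in all, and the nuclear median was 0.22. With no set term 0 members passed, with 208 genes in all.

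**Figure D2:**
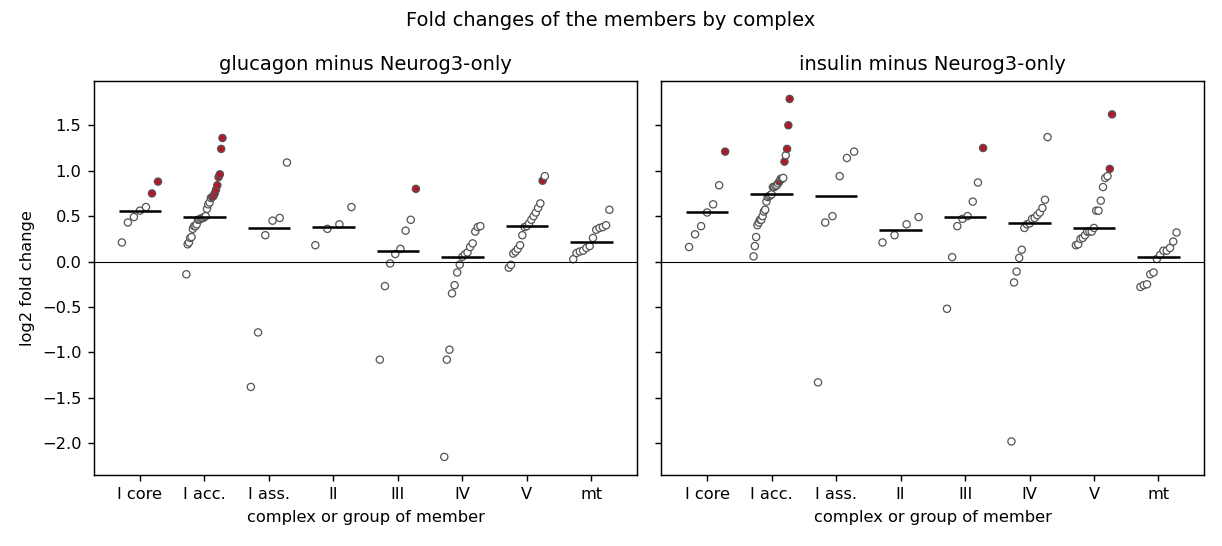
Log2 fold change of every tested member against Neurog3-only cells, grouped by complex (I acc., accessory; I ass., assembly; mt, mitochondrial-encoded), for glucagon cells (left) and insulin cells (right). Filled points passed the limma threshold, open points did not, and bars are group medians; calls lie in complexes I, III and V, and no member of complexes II or IV or of the mitochondrial-encoded group passed.

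**Figure D3:**
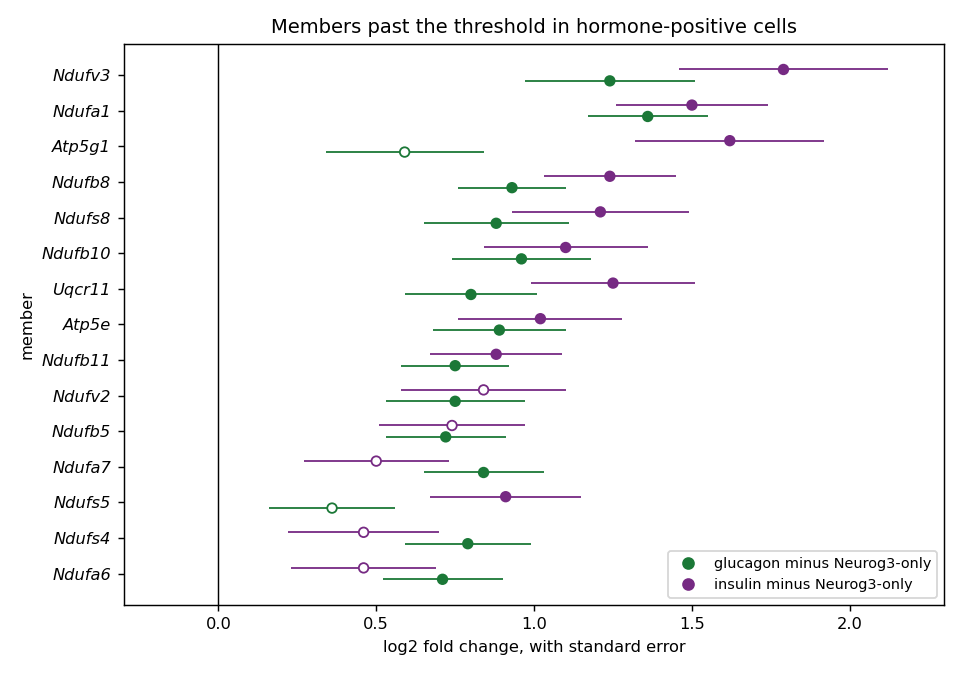
Log2 fold change with its standard error for the 15 members that passed in glucagon or in insulin cells, both against the same Neurog3-only cells. Filled points passed the limma threshold and open points did not; Ndufv3, Ndufa1, Ndufb8, Ndufs8, Ndufb10, Uqcr11, Atp5e and Ndufb11 are filled for both states.

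**Figure D4:**
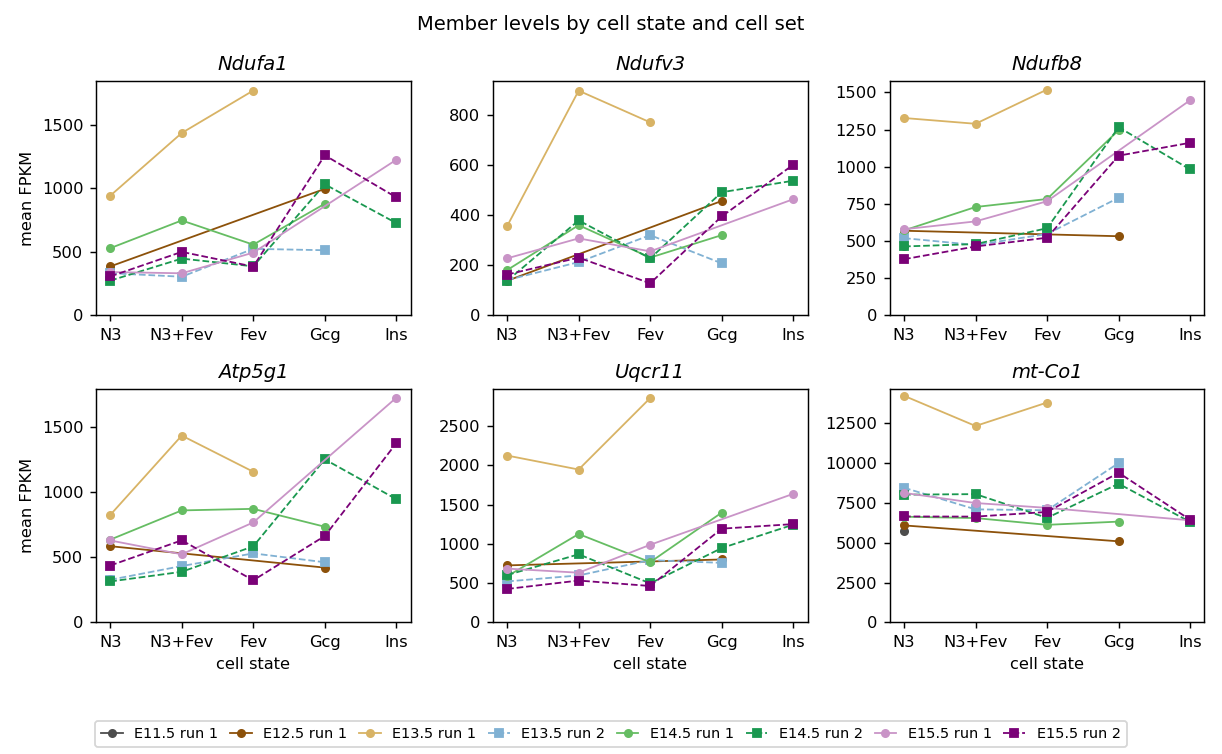
Mean FPKM of 5 called nuclear members and mt-Co1 in each state and set (N3, Neurog3-only; N3+Fev, both; Fev, Fev-only; Gcg, glucagon; Ins, insulin); lines join the usable states of a set, solid for run 1 and dashed for run 2. E13.5 run 1 lies highest in most panels, and insulin points lie above the Neurog3-only points of their own set for the nuclear members but below them for mt-Co1.

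Between insulin and glucagon cells 0 of 86 nuclear and 0 of 12 mitochondrial-encoded members passed in limma, against 0.143% of all genes tested higher and 0.0624% lower. At an unadjusted p under 0.05 were 7 nuclear and 2 mitochondrial-encoded members, and 1295 of the 16029 genes tested. Only E14.5 run 2 and E15.5 run 2 held both states. The fit over all units gave a nuclear median of 0.18, while the medians within these 2 sets were -0.33 and -0.09, opposite in sign. As shares of named nuclear FPKM the nuclear members were higher in insulin cells in both sets, by 0.46 and 0.6 percentage points. For the mitochondrial-encoded members the fit gave -0.25, with 0 of 12 above 0, and the sets gave -0.44 and -0.61, all on the side of lower levels in insulin cells. The largest differences, Cox6b2 (2.34 ± 0.99) and Ndufaf5 (1.80 ± 1.11) upward and Ndufaf1 (-0.54 ± 0.92) and the core subunit Ndufv1 (-0.44 ± 0.40) downward, missed the threshold. Over all cells of each state, Cox6b2 was detected in 29.8% of insulin cells (mean 32.1 FPKM) and 37.3% of glucagon cells (mean 33.5 FPKM). Its rise in the fit was thus not seen in the pooled cells.

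The mitochondrial-encoded members had smaller median differences than the nuclear ones in insulin cells, and the difference between the groups was not tested. Over the 3 insulin sets their medians were -0.067, -0.33 and 0.35, against 0.48, 0.42 and 0.81 for the nuclear members, with E15.5 run 2 highest for both. None of 12 passed in insulin cells (median 0.05, range -0.28 to 0.32, 0 at an unadjusted p under 0.05) or in glucagon cells (median 0.22, 12 of 12 above 0, 4 at an unadjusted p under 0.05). Of the 1386 genes of at least 100 FPKM, 412 in insulin and 520 in glucagon cells had an unadjusted p under 0.05. mt-Co1, the catalytic subunit of complex IV, measured 6310, 6411 and 6447 FPKM in the 3 insulin sets and 8022, 8133 and 6654 FPKM in the Neurog3-only cells of the same sets, lower in all 3. mt-Cytb measured 4029, 4815 and 4688 FPKM against 4257, 4889 and 3210 FPKM, lower in 2 of 3. With cells rescaled over named nuclear genes, 4 of 12 were lower in insulin cells by limma, where 340 genes passed in all and the medians were -0.15 for the mitochondrial-encoded members and -0.12 for all genes tested: mt-Atp8 (-0.47 ± 0.092, adjusted p = 0.00686), mt-Atp6 (-0.42 ± 0.09, 0.0139), mt-Co1 (-0.34 ± 0.078, 0.0192) and mt-Co3 (-0.32 ± 0.081, 0.0339). These calls depended on the scaling, which moved the median of all genes from 0.036 to -0.12.

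As shares of a cell's FPKM, the mitochondrial-encoded members took less in insulin cells and the nuclear members more of what named nuclear genes took. The median mitochondrial-encoded share of the 3 insulin sets was 6.07%, 4.66% and 5.54%, and that of their Neurog3-only cells 7.44%, 7.41% and 6.59%. It was lower in 3 of 3 sets in insulin cells, in 5 of 6 sets in Fev-only cells, and in 3 of 5 sets in glucagon cells. The nuclear members took 6.06%, 5.56% and 6.07% of named nuclear FPKM in the insulin sets and 4.7%, 4.81% and 4.78% in their Neurog3-only cells, with no overlap, although Neurog3-only cells of E13.5 run 1 reached 5.91%. Over all FPKM the nuclear share was higher in 2 of 3 insulin sets and lower in E15.5 run 1 (3.37% against 3.66%). As shares of named nuclear FPKM the nuclear members were higher in glucagon cells in 4 of 5 sets, the exception being E13.5 run 2 (4.38% against 4.76%). Over all FPKM they were also higher in 4 of 5 sets, with 2.33% in both states of E13.5 run 2. Hormone transcripts moved with the share of all FPKM: their median was 2.02%, 14.8% and 7.2% in the 3 insulin sets and under 0.01% in the Neurog3-only cells, and the named nuclear total leaves them out. The ratio of mitochondrial-encoded to nuclear FPKM, which no total enters, was lower in insulin cells in 3 of 3 sets (differences of -1.13 to -1) and in glucagon cells in 5 of 5 (-0.99 to -0.11). It was also lower than in Neurog3-only cells in 5 of 6 sets of Fev-only cells, in 5 of 6 of cells with Neurog3 and Fev, and in 7 of 7 of cells under all thresholds, so a lower ratio was not limited to hormone cells. Some sets of cells under all thresholds held markers of other cell types, whose part in the ratio was not tested.

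**Figure D5:**
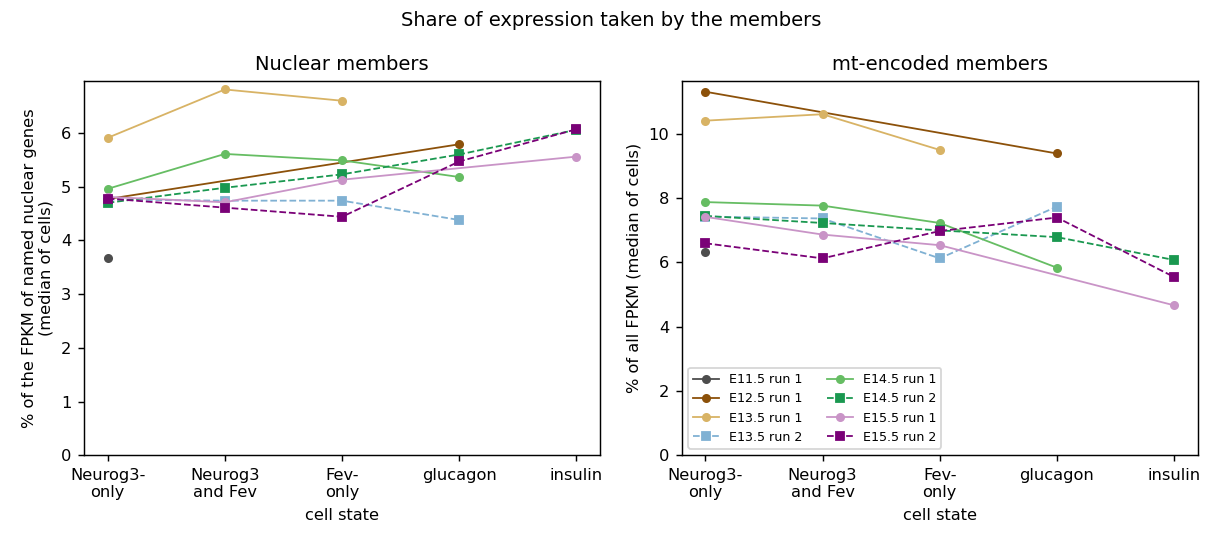
Left, percent of the FPKM of named nuclear genes taken by the nuclear members; right, percent of all FPKM taken by the mitochondrial-encoded members; each point is the median over the cells of a state in a set, solid lines run 1 and dashed lines run 2. Insulin points lie above the Neurog3-only points of their set on the left (6.06% against 4.7% in E14.5 run 2) and below them on the right (6.07% against 7.44%).

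For the 8 members called in both hormone states, a choice of what to show and not a result, since the contrasts share their controls, the sequence around the start was read, because nuclear respiratory genes are known targets of NRF1, of the ETS factor GABP and of YY1. RefSeq promoters (GRCm38.p6, the same chromosome sequences as mm10) from 250 bases before to 50 after the start were matched by symbol for 73 of 92 nuclear members, and for all 8. Both strands were searched for GCGCA, any base, then GCGC (NRF1), CCGGAAG (ETS factors, GABP among them) and CCATCTT (YY1). The 4 promoters of the 8 that held a match follow, 5′ to 3′ on the gene's strand, with the match in capitals.

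Ndufs8, chr19:3912725-3913024, minus strand: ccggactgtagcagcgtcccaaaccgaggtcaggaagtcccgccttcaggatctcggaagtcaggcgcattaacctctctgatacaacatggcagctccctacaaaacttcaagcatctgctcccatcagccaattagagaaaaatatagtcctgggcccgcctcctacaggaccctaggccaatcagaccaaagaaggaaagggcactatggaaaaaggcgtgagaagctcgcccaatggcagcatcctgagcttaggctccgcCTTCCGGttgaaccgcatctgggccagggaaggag
Uqcr11, chr10:80406772-80407071, minus strand: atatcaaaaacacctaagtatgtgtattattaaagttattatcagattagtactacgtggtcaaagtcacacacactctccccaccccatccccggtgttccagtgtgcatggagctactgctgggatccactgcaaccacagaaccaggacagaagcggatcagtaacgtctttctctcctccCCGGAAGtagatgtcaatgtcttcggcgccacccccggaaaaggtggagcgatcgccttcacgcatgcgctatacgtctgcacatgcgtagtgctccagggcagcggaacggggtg
Atp5e, chr2:174464052-174464351, minus strand: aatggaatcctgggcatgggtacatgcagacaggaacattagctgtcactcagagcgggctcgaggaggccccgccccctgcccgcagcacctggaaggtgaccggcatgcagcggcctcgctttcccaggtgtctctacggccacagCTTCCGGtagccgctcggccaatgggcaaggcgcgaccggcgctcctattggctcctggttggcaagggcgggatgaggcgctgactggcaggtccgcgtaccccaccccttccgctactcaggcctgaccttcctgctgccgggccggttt
Ndufb8, chr19:44555393-44555692, minus strand: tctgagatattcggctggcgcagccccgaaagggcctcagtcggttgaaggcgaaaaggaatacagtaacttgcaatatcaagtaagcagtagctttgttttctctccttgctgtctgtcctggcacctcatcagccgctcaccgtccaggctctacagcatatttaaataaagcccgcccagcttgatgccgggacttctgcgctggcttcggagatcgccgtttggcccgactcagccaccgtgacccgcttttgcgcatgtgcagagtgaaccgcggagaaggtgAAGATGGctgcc

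Ndufs8, Uqcr11 and Atp5e hold CCGGAAG or its reverse complement, and Ndufb8 holds the reverse complement of CCATCTT just after its start. Ndufa1, Ndufv3, Ndufb10 and Ndufb11 hold none of the letters searched in this window. The NRF1 letters were found for 19 of the 73 nuclear members, against 1402 (5.19%) of all 27025 gene symbols with a RefSeq promoter, and for 0 of the 8. A symbol with several starts counted once, by a match at any of them. The 27025 were not selected by expression in these cells or by the gene table. CCGGAAG was in 17 (23.3%) against 9.93%, and in 3 of the 8, and CCATCTT was in 10 (13.7%) against 7.28%, and in 1 of the 8. Any of them was in 40 of 73 (54.8%) against 5414 of 27025. The members' promoters were richer in GC, with a median of 57.3% against 52.7%, and the part of base composition in these shares was not tested. A match describes letters in a window and is no binding site.

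Along embryonic day in Neurog3-only cells, 0 of 88 nuclear and 0 of 12 mitochondrial-encoded members had a slope past the threshold in limma (day and run as terms, 8 sets), against 0% of 15048 genes tested. At an unadjusted p under 0.05 were 0 members and 924 of all genes tested. The nuclear median was 0.12 log2 units per day, with 0.022 for mitochondrial-encoded members and 0.045 for all genes, while over E13.5 to E15.5 alone the nuclear median was -0.28 and without E11.5 it was -0.044. The largest rises were Cox4i2 (0.77 ± 0.45) and Ndufab1 (0.70 ± 0.47), and the largest falls Cox8c (-0.53 ± 0.30) and the assembly factor Ndufaf2 (-0.31 ± 0.22).

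Between runs within Neurog3-only cells of E13.5 to E15.5, 0 of 88 nuclear members passed in limma, against 0.224% of 14745 genes tested higher and 0.0678% lower. The 6 sets leave 2 residual degrees of freedom. An unadjusted p under 0.05 was found for 34 of the 88, and for 2275 of all genes tested. Among genes of at least 100 FPKM it was found for 30 of 73 nuclear members and 563 of 1345 genes. The nuclear median was -0.70 for run 2 minus run 1, with -0.64 for genes of at least 100 FPKM, and -0.17 after rescaling over named nuclear genes. Leaving out 1 of the E13.5 sets, of either run, it was -0.45, and the median of the mitochondrial-encoded members went from -0.43 to -0.087. The largest falls were Cox7a1 (-3.00 ± 0.97) and Ndufaf5 (-1.84 ± 0.78), and the largest rises Cox5a (1.91 ± 0.90) and Cox8c (1.05 ± 0.85).

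mt-Atp8, a short ATP synthase subunit gene, differed most between runs among the mitochondrial-encoded members. Over all kept cells it measured 6857 FPKM at E11.5, 9926 at E12.5, 14583, 7474 and 7561 in run 1 of E13.5 to E15.5, and 22964, 21399 and 23345 in run 2. Every run 2 set lay above every run 1 set. mt-Co3, which shares its deposited locus, measured 16177, 15144 and 16112 FPKM in run 2 and 32712, 14530 and 16242 in run 1 of the same days. In Neurog3-only cells the log2 fold change of mt-Atp8 was 1.04 ± 0.37 (limma, adjusted p = 0.285), and 1.61 ± 0.11 (adjusted p = 0.00743) with cells rescaled over named nuclear genes. Relative to the nuclear median, mt-Atp8, mt-Nd6, mt-Nd2, mt-Nd4 and mt-Nd5 were higher in every run 2 set than in every run 1 set of the same days. They are among 12 mitochondrial-encoded members of at least 10 FPKM, of which 0 were lower in every run 2 set. On the same measure 7 of 85 nuclear members were higher and 11 lower. The share over all genes was not counted, so these counts are not read as a result about the members. The reference also moved, at 641, 367 and 370 FPKM in run 1 of E13.5 to E15.5 and 291, 289 and 361 FPKM in run 2. In plain FPKM mt-Nd5 measured 1998, 1360 and 1173 in run 1 and 1137, 1094 and 1406 in run 2. On that scale mt-Nd2, mt-Nd4 and mt-Nd6 were lower in run 2 at E13.5 and higher at E14.5 and E15.5. What differed between the runs is not given in the labels.

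Genes around the chain came from lists that are no members. Of all genes tested, 3.54% were higher in glucagon, 1.60% in insulin and 1.37% in Fev-only cells. Among genes of at least 100 FPKM these shares were 16.3%, 8.87% and 5.27%. Lower were 2.01% of all genes in Fev-only and 0.487% in insulin cells, and 0.143% were higher in insulin than in glucagon cells. Whether the calls below hold with a set left out is not given. Of 18 tricarboxylic acid cycle genes, 2 were higher in insulin cells, Pcx, pyruvate carboxylase (4.26 ± 0.74; 28.2 to 45.8 FPKM against 0.0628 to 10.3 FPKM in Neurog3-only sets; limma, adjusted p = 0.00224), and Idh3a, a subunit of isocitrate dehydrogenase (1.64 ± 0.43), while 0 of 18 were called in glucagon cells. Pcx was also higher in insulin than in glucagon cells (3.74 ± 0.80; limma, adjusted p = 0.0437). In Fev-only cells Suclg2, a subunit of succinate-CoA ligase, was lower (-2.69 ± 0.76). Of 17 glycolysis genes tested, Aldoa, an aldolase, was higher in Fev-only (0.90 ± 0.22) and insulin cells (1.14 ± 0.28), Pgam1 higher in glucagon cells (0.81 ± 0.23), and Pkm, pyruvate kinase, lower in Fev-only cells (-0.66 ± 0.16). Of 30 electron carrier and assembly genes outside the rule, the assembly factors Cox17 (1.05 ± 0.24), Uqcc2 (1.03 ± 0.20) and Cox14 (0.95 ± 0.24) were higher in glucagon cells, Uqcc2 (1.11 ± 0.24) in insulin cells, and Cox10, an enzyme of heme a synthesis, was lower in Fev-only cells (-2.23 ± 0.60). Of 12 genes of mitochondrial biogenesis tested, Lrpprc, which stabilises mitochondrial mRNAs, was higher in glucagon cells (1.99 ± 0.50) and Polg, the mitochondrial DNA polymerase, lower in Fev-only cells (-1.82 ± 0.47). Of 10 hypoxia-responsive genes tested, Ndrg1 was lower in insulin cells (-2.05 ± 0.39) and P4ha1 higher in glucagon cells (1.42 ± 0.40).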

How the data were processed

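Single sorted cells were sequenced as Nextera XT libraries of SMART-seq cDNA, per the labels' protocols. The authors deposited FPKM values per gene and cell, made with TopHat2 2.0.13 and Cufflinks 2.2.0 on mm10, per the submitters' processing notes; the sources used here do not give the annotation, and counts were not analysed here. SMART-seq has no molecular identifiers or strand marking. The depth given is the labels' total mass, read as fragments per cell. Of the columns of values, 0 were left unmapped, and each well held 1 sorted cell, so no doublet caller was run.

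FPKM was averaged over the cells of a state in a set, limma 3.58.1 (R 4.3.3) was run on log2(mean + 1) (intensity trend, set as a term, Benjamini-Hochberg adjustment over all genes with a mean of at least 1 FPKM, threshold 0.05), and fold changes understate low genes. States needed 5 cells per set. The fits were tested on simulated data. Alternatives were the pseudocount (0.1), no filter, means of logs, rescaling over 20140 named nuclear genes without hormone, predicted and small RNA genes, 300000 fragments, a hormone threshold of 10 FPKM, 10 cells per set, no trend, no set term, each run alone, and each set left out. Transcript GC came from GENCODE, and promoters from RefSeq.

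Members and lists were chosen with earlier results of these data known. The text names all mitochondrial-encoded members, complex II, the isoform groups, the 5 highest and those under 1 FPKM, and per test up to 6 members each way past the threshold, or else the 2 largest changes.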

Additional observations from a re-analysis of the deposited data

Results flagged for a closer look

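The mitochondrial-encoded members of glucagon cells lay on opposite sides of 0 in the runs. The median log2 difference to Neurog3-only cells was -0.15 over the run 1 sets and 0.33 over the run 2 sets, and the difference between the runs was not tested. In run 1 it was -0.28 at E12.5, a set with 5 glucagon cells, and -0.02, close to 0, at E14.5, so the direction in run 1 rests mainly on that 1 small set. In run 2 it was 0.33, 0.25 and 0.94 from E13.5 to E15.5. Median total FPKM per cell was higher in glucagon than in Neurog3-only cells in all 3 run 2 sets and in E14.5 run 1, and lower in E12.5 run 1, and its part in the result was not tested.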

How the results depend on the processing

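Counts of members are given here with the number of genes that passed in all, in either direction. Nuclear members higher in insulin cells were 10 of 335 as fitted above. They were 6 of 340 after rescaling over named nuclear genes, 4 of 226 without an intensity trend and 0 of 7 with a hormone threshold of 10 FPKM. With at least 10 cells per set they were 18 of 807, and in run 2 alone 0 of 49. In run 1 alone the insulin state is 1 sample, and no count is given. Leaving out each set gave 2 to 10, with 46 to 418 genes in all. The mitochondrial-encoded members lower in insulin cells were 4 after rescaling. In glucagon cells the count of higher nuclear members was 13 of 736 as fitted above. It was 20 of 1565 with means of logs, 5 of 727 after rescaling (with 1 lower) and 1 of 152 with at least 300000 fragments. Without a trend it was 4 of 575, with a hormone threshold of 10 FPKM 2 of 182, and with at least 10 cells 6 of 285. In run 1 alone it was 0 of 175 (with 2 lower) and in run 2 alone 2 of 160. Leaving out each set gave 2 to 19, with 310 to 863 genes in all. The mitochondrial-encoded members higher in glucagon cells (0) were 3 with means of logs and 3 without E12.5 run 1 and E13.5 run 1, where 711 genes passed. They were 7 with at least 10 cells, and 0 to 4 leaving out each set. In Fev-only cells the count of higher nuclear members was 1 of 541 as fitted above. It was 2 of 881 with means of logs and 4 of 1155 with at least 10 cells (with 1 lower). It was 0 of 398 without E12.5 run 1 and E13.5 run 1, 0 of 470 without a trend and 0 of 312 with a hormone threshold of 10 FPKM. In run 1 alone it was 0 of 11 and in run 2 alone 0 of 71. Leaving out each set gave 0 to 1, with 259 to 688 genes in all. In cells with Neurog3 and Fev it was 0 of 49 as fitted above, 1 of 41 with a hormone threshold of 10 FPKM and 1 of 204 with at least 10 cells. Between insulin and glucagon cells it was 0 of 33 as fitted above and 1 of 36 after rescaling. With at least 10 cells it was 1 of 32, with 3 mitochondrial-encoded members lower. Between runs 0 members and 43 genes in all passed as fitted above. With means of logs 1 nuclear member was lower and 1 mitochondrial-encoded member higher, with 302 genes in all. After rescaling 1 mitochondrial-encoded member was higher, with 42 genes in all. The cause was not tested. Of 480 values of single called members under an alternative, 273 stayed past the threshold, 207 did not and 0 reversed. These are refits of the same cells and not independent. They take in fits that left out a set without usable cells of the hormone state, and the run 1 fit with 1 insulin sample.

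The set stood as the replicate block of the state contrasts, and day as that of the runs. In the fit with no replicate block 0 nuclear members were higher in insulin cells, 0 in glucagon cells and 0 in Fev-only cells. Over all genes tested 208, 248 and 383 passed there. Labels carry no replicate numbers beyond run and cell. A contrast of insulin and glucagon cells in run 1 alone is not given, since 0 of its sets held both. Few sets per state limit these calls: insulin cells rest on 3 sets, and a state in a set on as few as 5 cells.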
